A study of Homo sapiens and Mus musculus with 10 samples.

Results

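This account covers 10 human genes of NF-kB signalling and its chemokine output, CXCL8, CCL2, TNFRSF9, NOD2, RELA, RELB, NFKB1, NFKB2, NFKBIA and TNFAIP3, in HEK293T cells under stress. They were chosen with earlier results of these data known and were matched by symbol. A gene counted as measured where a row of a deposited HEK293T table carried its symbol. Of the 10 genes, 9 had a row among the 16120 of the table of stress treatments and 6 had one among the 11976 of the table of genotypes. The same 6 (CXCL8, CCL2, TNFRSF9, NOD2, RELB and NFKBIA) were counted on the same transcript in both tables, which shared 10368 transcripts. NFKB1, NFKB2 and RELA were counted in the stress table only, and TNFAIP3 was not analysed here because neither table used here carried its symbol.

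NF-kB is a family of dimeric transcription factors built from the Rel subunits, which the IkB proteins hold in the cytoplasm of resting cells. Signals from cytokine and pattern recognition receptors activate a kinase complex that marks IkB for destruction, and the freed dimers then switch on chemokines, cell surface receptors and the genes of their own inhibitors. A second route, in which RELB pairs with the processed product of NFKB2, is driven by a subset of tumour necrosis factor receptors. Stress in the endoplasmic reticulum (ER) is also known to engage the pathway.

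HEK293T is an established human embryonic kidney line, and its RNA was sequenced after removal of ribosomal RNA in the 7 libraries used here. In the stress set, wild-type (WT) cells gave 1 library per treatment: mock-treated cells, cells deprived of glucose for 24 h (GD) and cells given 300 nM thapsigargin for 6 h (TG). Thapsigargin blocks the calcium pump of the ER and so causes ER stress, and the submitters describe GD as a metabolic oxidative stress. The genotype set held 1 library each of WT mock, WT GD (24 h), UFD1s-deficient mock and UFD1s-deficient GD (24 h). TG was given to WT cells of the stress set only. The labels do not say how the deficiency was made, whether the line is 1 clone, or whether any libraries came from separate cultures. P-values therefore measure only the spread between these libraries, which may be technical.

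Reads counted on transcripts ranged from 11461365 to 19024327 per library. UFD1 was counted on a different transcript in each set, with 10, 0 and 0 reads in stress-set mock, GD and TG, and in the genotype set WT cells had 168 (mock) and 107 (GD) reads against 199 and 193 in deficient cells. Neither row is stated to cover what is missing in the deficient cells, so these reads do not check the genotype labels. Of 14 genes listed as typical of HEK293T, 12 had a row in the stress table, with a summed level of 1054 to 1817 CPM (reads scaled to a common library size), and 8 had a row in the genotype table, at 1670 to 1935 CPM. VIM had the most reads of them in every library. KRT8 and GATA3 had 0 reads in stress-set mock and TG, and PAX2 and PAX8 had no row in either table. Of 20 leukocyte markers, 7 had a row in the stress table, at a summed 2.20 to 2.77 CPM, and 1 (CSF1R) had a row in the genotype table, at 1.03 to 2.43 CPM. PTPRC and CD3E, which define leukocytes and T cells, had no row in either. Of 13 endothelial and fibroblast markers, 11 had a row in the stress table and 6 in the genotype table, with COL1A1 and COL3A1 the most abundant by reads and COL1A2 at 0 reads in stress-set mock and GD. Their summed level was 52.1, 29.1 and 44.3 CPM in stress-set mock, GD and TG. In WT cells of the genotype set it was 92.2 (mock) and 37.2 (GD) CPM, and in deficient cells 120.2 and 66.3 CPM, so it was lower in GD in each of the 3 mock and GD pairs and higher in the deficient library at each treatment. Its part in the results below was not tested.

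The sequence before the start site of 6 of the genes is shown: CXCL8, TNFRSF9, NFKB1 and NFKBIA carry letters of the type that NF-kB dimers bind, and NOD2 and NFKB2 have no such match in this window. RELA had no match either and is not shown. Each run gives the 150 bases before the gene's start, 5′ to 3′ on the gene's own strand, from RefSeq on build GRCh38.p14. Capitals mark matches on either strand to the kappaB consensus, to a short kappaB form (GGNNTTTCC) or to the AP-1 motif (TGANTCA).
CXCL8, chr4:73740419-73740568, plus strand: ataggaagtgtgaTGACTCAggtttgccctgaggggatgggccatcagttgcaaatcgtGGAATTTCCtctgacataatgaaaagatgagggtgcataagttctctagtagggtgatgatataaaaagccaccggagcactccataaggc
TNFRSF9, chr1:7940840-7940989, minus strand: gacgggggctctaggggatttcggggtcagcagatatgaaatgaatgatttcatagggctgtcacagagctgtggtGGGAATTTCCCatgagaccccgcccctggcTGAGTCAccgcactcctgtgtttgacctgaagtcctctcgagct
NFKB1, chr4:102501209-102501358, plus strand: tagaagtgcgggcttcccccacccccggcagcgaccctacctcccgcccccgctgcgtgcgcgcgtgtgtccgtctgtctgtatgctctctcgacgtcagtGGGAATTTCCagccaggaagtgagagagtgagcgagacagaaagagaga
NFKBIA, chr14:35404750-35404899, minus strand: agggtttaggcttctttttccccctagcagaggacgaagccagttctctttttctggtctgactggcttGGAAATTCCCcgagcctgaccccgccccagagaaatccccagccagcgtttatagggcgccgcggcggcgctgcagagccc
NOD2, chr16:50696798-50696947, plus strand: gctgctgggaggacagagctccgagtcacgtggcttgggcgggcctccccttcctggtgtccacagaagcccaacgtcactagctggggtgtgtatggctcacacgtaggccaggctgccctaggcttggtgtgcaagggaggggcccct
NFKB2, chr10:102393960-102394109, plus strand: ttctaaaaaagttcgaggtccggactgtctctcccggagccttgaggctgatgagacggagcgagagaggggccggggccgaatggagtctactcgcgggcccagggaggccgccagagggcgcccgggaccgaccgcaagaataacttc
The table of RefSeq promoters matched 8 of the 10 genes (RELB and CCL2 had no entry). Within 250 bases before the start, the kappaB consensus was found for 4 of the 8 and in 5.05% of all 27305 promoters. The short form was found for 5 of the 8 and in 5.48% of all promoters, and the 2 forms overlap each other at most of these sites. Either form was present for CXCL8, TNFRSF9, NFKB1, NFKBIA and TNFAIP3, and in 9% of all promoters. The AP-1 motif was found for CXCL8 and TNFRSF9, and in 6.6% of all promoters. In CXCL8 the kappaB match lay 91 to 83 bases and the AP-1 match 137 to 131 bases before the start. In TNFRSF9 they lay 74 to 64 and 44 to 38 bases before it. NFKB1 had its kappaB match 49 to 40 bases, and NFKBIA 81 to 72 bases, before the start, with another short match in NFKBIA outside the run shown, 242 to 234 bases before it. A motif of C/EBP and ATF factors (TGATGNAA) was found for 0 of the 8 and in 3.19% of all promoters. Other forms of C/EBP site were not searched for, so this does not show that they are absent. These matches describe letters and do not show that a factor was bound. Of the genes without a kappaB match, NFKB2 went from 1 read in mock to 19 in TG and NOD2 from 12 to 8.

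At rest the genes lay far apart in abundance. NFKBIA, which encodes the inhibitor IkB-alpha, was the most abundant per transcript length in both WT mock libraries, at 18.9 and 25.5 RPKM, the CPM value divided by transcript length in kilobases. CCL2 followed at 2.76 and 2.85 RPKM and RELB at 0.941 and 1.64 RPKM. TNFRSF9 was at 0.380 and 0.105 RPKM, CXCL8 at 0.260 and 0.276 RPKM and NOD2 at 0.148 and 0.140 RPKM. In the stress set NFKB1 was at 0.190 and NFKB2 at 0.0178 RPKM, and the RELA row had 0 reads. CXCL8, NFKB1 and NOD2 rested on 8, 14 and 12 reads in stress-set mock, so their order among themselves is within counting error. Each value is that of 1 transcript row and need not be the total of the gene: RefSeq lists 12 transcripts each for RELA and NFKB1 and 18 for NOD2.

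**Figure D1:**
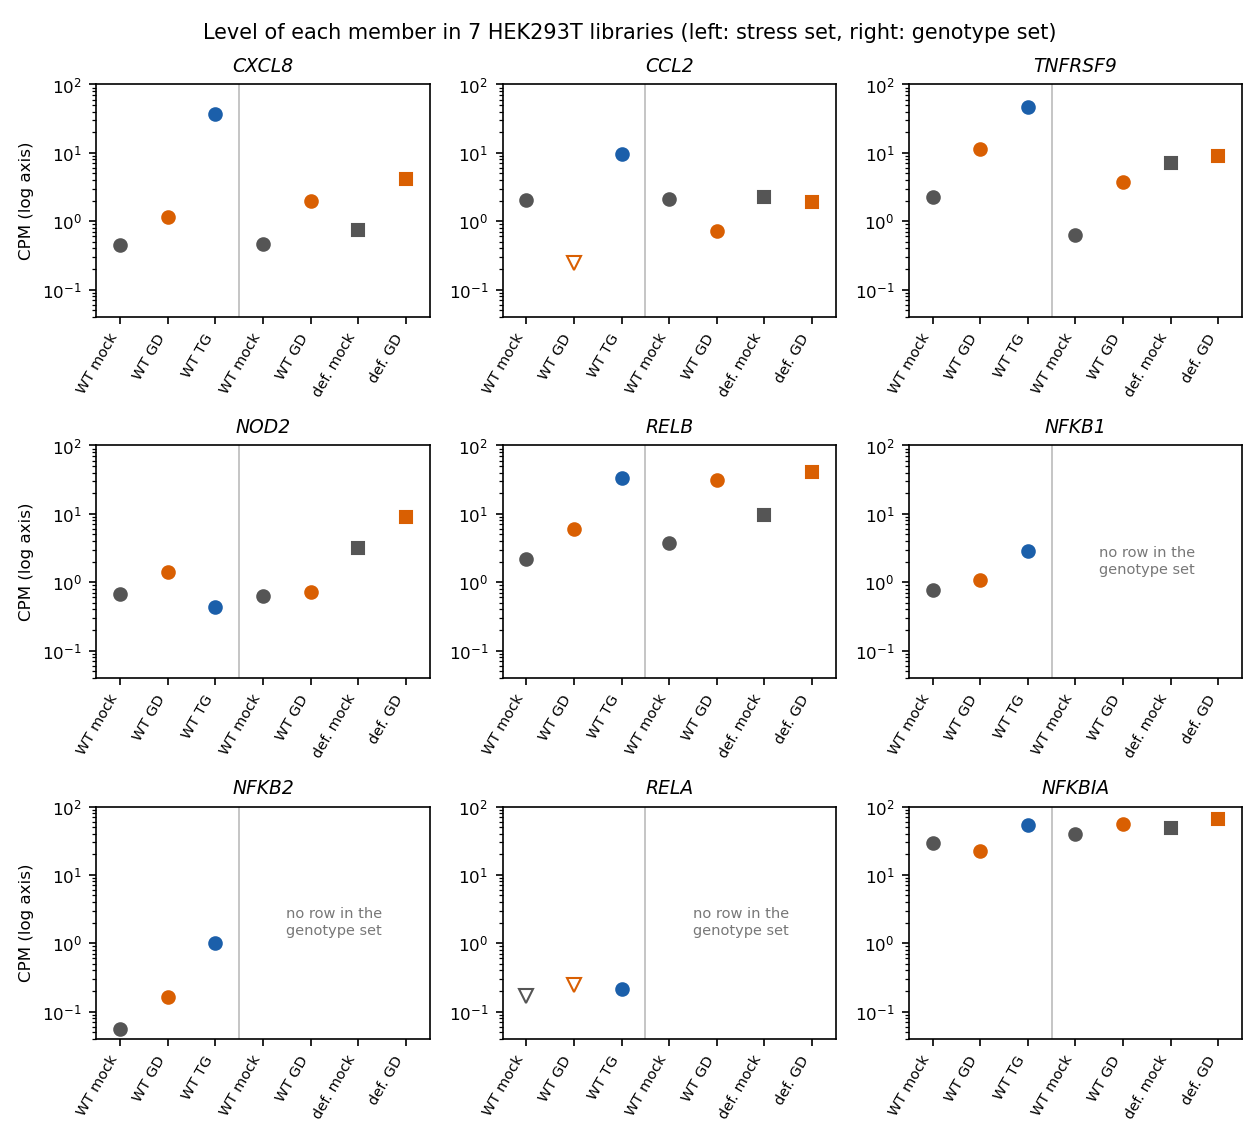
Level of each of the 9 measured genes in CPM (log axis) in each of the 7 HEK293T libraries, with the stress set left and the genotype set right of the vertical line; circles are WT, squares are UFD1s-deficient, and grey, orange and blue are mock, GD and TG. An open triangle stands for 0 reads and is drawn at the level of 3 reads. CXCL8, TNFRSF9 and RELB are highest or near their highest in TG, and NOD2 is highest in the 2 deficient libraries.

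The first comparison set TG against mock in the stress set and asked which of these genes were at a higher level after 6 h of ER stress. CXCL8, TNFRSF9, RELB, CCL2 and NFKB1 were higher in TG by 3.67-fold to 83.2-fold, NFKBIA was higher by less than 2-fold, and NOD2 was not higher. With 1 library per condition there is no test. A gene counted as past the size rule at 2-fold or more (with 5 reads added) and 50 or more reads in the higher library. The ratios below are of scaled reads, with exact 95% intervals that cover counting error only. Of the 9 genes 6 had 50 or more reads in either library and 5 were past the rule on the high side, against 4.79% of the 9116 transcripts with 50 or more reads, and 0 were past it on the low side, against 3.33%. All 5 reached 50 reads only in TG, the library where they were high, so this count is not support for a shared change. NFKBIA alone had 50 or more reads in mock, and it was not past the rule.

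CXCL8 encodes the neutrophil chemokine interleukin-8. It had 8 reads in mock, 14 in GD and 687 in TG, or 0.443, 1.14 and 36.8 CPM. The TG library stood far above both others, at 83.2-fold mock (95% interval 42.0 to 193). CCL2 encodes a chemokine that draws in monocytes. It had 37 reads in mock, 0 in GD and 180 in TG, or 2.05, 0 and 9.65 CPM, so the 2 stress libraries lay on opposite sides of mock. The ratio of TG to mock was 4.71 (3.29 to 6.91).

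TNFRSF9, also called 4-1BB, is a co-stimulatory receptor of the tumour necrosis factor receptor family. It had 41, 139 and 861 reads in mock, GD and TG, or 2.27, 11.3 and 46.2 CPM. Both stress libraries were above mock, TG the more so at 20.3-fold (14.9 to 28.6). NOD2 is an intracellular sensor of bacterial muropeptides that signals to NF-kB through RIPK2. It had 12, 17 and 8 reads, and its ratio of TG to mock was 0.646 with an interval of 0.229 to 1.72. A difference of NOD2 between TG and mock was not detectable at this depth.

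Among the Rel subunits, RELB, the partner of the NFKB2 product in the second route, had 39, 74 and 631 reads in mock, GD and TG, or 2.16, 6.04 and 33.8 CPM. TG was 15.7-fold mock (11.3 to 22.3). NFKB1, the precursor of p50, had 14, 13 and 53 reads, with mock and GD alike and TG at 3.67-fold mock (2.01 to 7.16). NFKB2, the precursor of p52, had 1, 2 and 19 reads. Its ratio of TG to mock was 18.4, but the interval ran from 2.93 to 765 and it was under the read minimum. RELA, the main activating subunit, had 0, 0 and 4 reads on the transcript counted, too few for a comparison.

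NFKBIA had 533, 275 and 1010 reads in mock, GD and TG, or 29.5, 22.4 and 54.2 CPM. TG was the highest of the 3 libraries at 1.84-fold mock (1.65 to 2.04), which is under the 2-fold rule although the interval lies above 1. With the WT mock library of the genotype set as the control, over the 6 genes on shared transcripts, CXCL8, CCL2, TNFRSF9 and RELB stayed past the rule. TNFRSF9 then had a log2 ratio of 5.77 in place of 4.19, because its level in that mock library was lower.

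**Figure D2:**
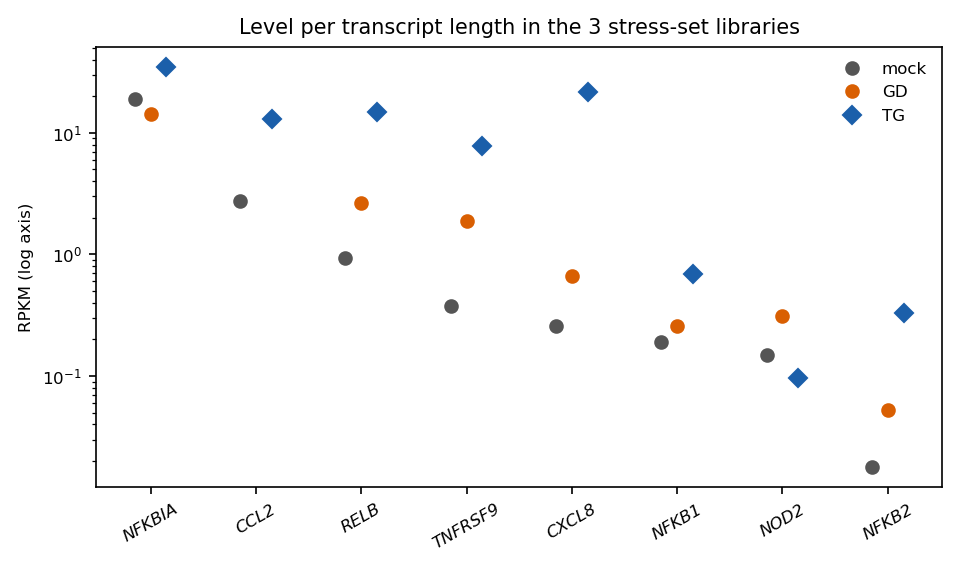
Level per transcript length (RPKM, log axis) of 8 genes in mock (grey), GD (orange) and TG (blue) of the stress set, 1 library each; CCL2 had 0 reads in GD and RELA had 0 reads in mock and GD, so these points are not drawn and RELA is left out. In TG, CXCL8 at 21.6 RPKM is second to NFKBIA at 34.8 RPKM, while in mock it lies below CCL2, RELB and TNFRSF9.

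GD and TG were set against the same mock library, so their ratios are not independent, and GD lasted 24 h and TG 6 h. Side by side, the ratios of GD and TG to mock were 2.58 and 83.2 for CXCL8, 5.0 and 20.3 for TNFRSF9, and 2.80 and 15.7 for RELB. CCL2 went from 37 reads in mock to 0 in GD and was higher in TG. Its fall in GD was 8.36-fold with a floor of 3 reads in place of 0, and at least 6.47-fold by the exact 95% limit. Past the size rule in stress-set GD were TNFRSF9 and RELB on the high side, against 3.67% of 8904 transcripts. Of mock and GD, these genes reached the read minimum of the rule only in GD, where they were high. The count in GD is therefore not support for a shared change.

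Glucose deprivation was measured in 3 mock and GD pairs and was tested across all 6 libraries. RELB, CXCL8 and TNFRSF9 rose in GD, while CCL2, NOD2 and NFKBIA did not pass the test. In edgeR's quasi-likelihood fit, whose terms were treatment, set and genotype, 3 of the 6 genes were called higher and 0 lower at an adjusted p of 0.05 over 10368 transcripts. Of all transcripts 20.9% were called, 9.75% higher and 11.1% lower, so calls were common in this comparison. The median log2 difference of GD minus mock was 1.32 over the 6 genes and -0.02 over all transcripts. The genes were chosen with earlier results of these data known. Neither this gap nor the shares called, here and below, are therefore support for a shared change. At an unadjusted p of 0.05, 4 of the 6 were higher and 0 lower, a count with no share over all transcripts beside it. DESeq2 called 2 higher (RELB and TNFRSF9) and 0 lower of the 4 to which it gave an adjusted p. CXCL8 and CCL2 were not among those 4. Over all transcripts DESeq2 called 1018 of 9564 higher. RELB and TNFRSF9 kept their edgeR calls when each of the 6 libraries was left out in turn. Set and genotype together fit each pair, so a library whose partner is left out adds nothing on GD. The 6 fits are thus 3 checks, here and for the GD results below. Leaving out a deficient library is much the same check as WT libraries alone. Both genes lost their calls with treatment as the only term (edgeR adjusted p = 0.217 and 0.501).

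RELB had 39 reads in mock and 74 in GD of the stress set, 48 and 344 in WT of the genotype set, and 130 and 469 in the deficient pair. GD was above mock in each of the 3 pairs, by 2.80-fold (1.87 to 4.24), 8.22-fold (6.06 to 11.4) and 4.15-fold (3.41 to 5.08). Across all libraries the groups overlap, since deficient mock at 9.70 CPM was above stress-set GD at 6.04 CPM. The log2 difference was 2.22 (SE 0.272, edgeR adjusted p = 0.00105).

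CXCL8 had 8 and 14 reads in the stress-set pair, 6 and 22 in the WT pair of the genotype set, and 10 and 48 in the deficient pair. The 3 mock libraries, at 0.443 to 0.746 CPM, were all below the 3 GD libraries, at 1.14 to 4.12 CPM. The log2 difference was 1.99 (SE 0.494, edgeR adjusted p = 0.0207). This call rests on few reads. It was lost when either WT library of the genotype set was left out (adjusted p = 0.0593 and 0.0700), when either deficient library was left out (0.175 and 0.216), and in WT libraries alone (0.195).

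TNFRSF9 had 41 and 139 reads in the stress-set pair, 8 and 42 in the WT pair of the genotype set, and 94 and 104 in the deficient pair. Both WT pairs showed a large difference, 5.0-fold (3.51 to 7.27) and 6.02-fold (2.79 to 14.8), and the deficient pair did not, at 1.27-fold (0.955 to 1.70). The log2 difference over all libraries was 1.57 (SE 0.423, edgeR adjusted p = 0.0286). In WT libraries alone it was 2.40 (adjusted p = 0.0161), and in the genotype set alone it was 1.06 (adjusted p = 0.00924).

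CCL2 had 37 and 0 reads in the stress-set pair, 27 and 8 in the WT pair of the genotype set, and 30 and 22 in the deficient pair. GD was below mock in all 3 pairs, with an interval that excludes 1 in the 2 WT pairs (2.94-fold lower in the genotype set, 1.30 to 7.50) and one that holds 1 in the deficient pair (ratio 0.844, 0.464 to 1.51). The log2 difference of -1.61 (SE 0.742) did not pass the test (edgeR adjusted p = 0.155). The GD libraries (0 to 1.89 CPM) and the mock libraries (2.05 to 2.24 CPM) did not overlap.

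NOD2 had 12 and 17 reads in the stress-set pair, 8 and 8 in the WT pair of the genotype set, and 42 and 104 in the deficient pair. Its ratio of GD to mock was 2.09 (0.940 to 4.79) and 1.15 (0.375 to 3.51) in the WT pairs and 2.85 (1.97 to 4.18) in the deficient pair. The log2 difference was 1.08 (SE 0.429, edgeR adjusted p = 0.105).

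NFKBIA had 533 and 275 reads in the stress-set pair, 508 and 613 in the WT pair of the genotype set, and 651 and 758 in the deficient pair. The stress-set pair went down, at a ratio of 0.761 (0.656 to 0.882), and both pairs of the genotype set went up, at 1.38 (1.23 to 1.56) and 1.34 (1.21 to 1.49). The log2 difference over all libraries was 0.17 (SE 0.172, edgeR adjusted p = 0.506). Without the stress-set mock or the stress-set GD library it was 0.44 or 0.45 and was called (adjusted p = 0.00290 and 0.000671).

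In the genotype set alone (4 libraries, 1 residual degree of freedom) edgeR called 5 of the 6 genes higher in GD, against 19.1% of transcripts, and 0 lower. The 2 added were NOD2 at 1.16 (adjusted p = 0.0419) and NFKBIA at 0.45 (adjusted p = 0.000417). With all 11975 transcripts of that table fitted, NOD2 was at an adjusted p of 0.0685. By the size rule in single pairs, RELB was past it in WT of the genotype set, against 2.39% of transcripts. RELB and NOD2 were past it in deficient cells, against 2.14%. RELB in WT and NOD2 in deficient cells reached the read minimum of the rule only in GD, where they were high. RELB in deficient cells was above the minimum in mock too. These counts by the size rule are therefore not support for a shared change.

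**Figure D3:**
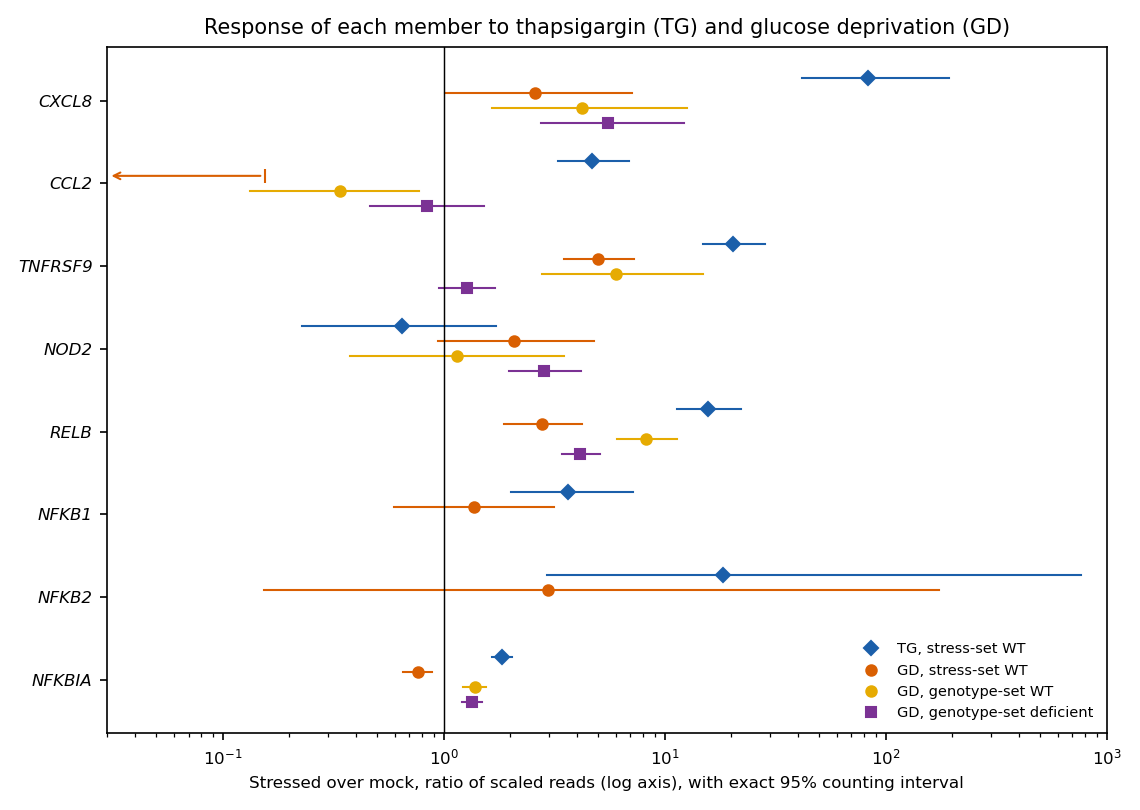
Ratio of the stressed to the mock library in scaled reads (log axis) for 8 genes, with exact 95% counting intervals, for TG in stress-set WT (blue diamonds), GD in stress-set WT (orange circles), GD in genotype-set WT (yellow circles) and GD in deficient cells (purple squares). The arrow for CCL2 starts at the upper limit of a ratio with 0 reads in GD, and RELA is left out. CXCL8 and RELB lie right of 1 in all 4 comparisons, TNFRSF9 in deficient cells lies near 1, and NFKBIA lies left of 1 in stress-set GD only.

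UFD1s-deficient cells were then set against WT cells. NOD2 rose in the deficient cells, and TNFRSF9 and RELB were higher at both treatments of the genotype set without passing the test over both sets. In the same edgeR fit 1 of the 6 genes was called higher, against 0.328% of transcripts, and 0 lower. At an unadjusted p of 0.05, 3 were higher and 0 lower, a count with no share over all transcripts beside it. DESeq2 called 2 higher and 0 lower, against 71 of 10368 transcripts called higher. The median log2 difference of deficient minus WT was 0.84 over the 6 genes and 0.01 over all transcripts. As the genes were chosen with earlier results known, this gap is not support for a shared change. As the RNA comes from whole cultures, more cells that express a gene and more of its RNA per cell cannot be told apart.

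NOD2 was at 3.13 CPM in deficient mock and 8.94 CPM in deficient GD, from 42 and 104 reads. The 5 WT libraries, TG included, held 0.429 to 1.39 CPM, so the genotypes did not overlap. Deficient cells were 5.002-fold WT in mock (2.32 to 12.3) and 12.4-fold WT in GD (6.08 to 29.6). The log2 difference was 3.0 (SE 0.534, edgeR adjusted p = 0.0381), and DESeq2 called it too. The call was lost without the genotype-set WT GD library (log2 2.41, adjusted p = 0.234), without deficient mock (3.38, 0.285) and without deficient GD (2.55, 0.754), with the value above 2 in each.

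TNFRSF9 had 94 reads in deficient mock against 8 in WT mock of the same set, or 7.01 against 0.627 CPM, 11.2-fold higher (5.45 to 26.7). In GD it had 104 against 42 reads, 2.37-fold higher (1.64 to 3.48). The WT libraries differed widely among themselves: stress-set mock was 4.12-fold (1.91 to 10.2) and stress-set GD 3.39-fold (2.38 to 4.90) above the same condition of the genotype set. Stress-set GD, at 11.3 CPM, was above both deficient libraries, so the genotypes overlap across sets. The log2 difference was 2.24 (SE 0.537, edgeR adjusted p = 0.0945). DESeq2 called it (2.36, adjusted p = 0.00379).

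RELB was 2.58-fold higher in deficient than in WT cells in mock (1.84 to 3.67) and 1.30-fold higher in GD (1.13 to 1.503). At 9.70 CPM, deficient mock was above both WT mock libraries (2.16 and 3.76 CPM) and below WT GD of its set (30.9 CPM). The log2 difference was 0.75 (SE 0.306, edgeR adjusted p = 0.303). RELB also differed between the sets under one label: WT GD was 4.54-fold higher in the genotype set than in the stress set (3.53 to 5.92).

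For the 2 chemokines, CXCL8 in deficient over WT cells was 1.59 in mock (0.523 to 5.32) and 2.09 in GD (1.24 to 3.63). CCL2 was 1.06 in mock (0.608 to 1.85) and 2.63 in GD (1.13 to 6.83). NFKBIA was 1.22 in mock (1.09 to 1.37) and 1.18 in GD (1.06 to 1.32). These 3 were all above WT in GD by their counting intervals, and none passed the test, with edgeR adjusted p of 0.551, 0.770 and 0.642.

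Within the genotype set alone edgeR called 3 of the 6 genes higher in deficient cells, against 8.83% of transcripts, and 0 lower: NOD2, TNFRSF9 (2.07, adjusted p = 3.23e-07) and RELB (0.73, adjusted p = 0.000711). By the size rule TNFRSF9 and RELB were past it in mock, against 1.49% of transcripts, and TNFRSF9 and NOD2 in GD, against 1.35%. In each case the gene reached the read minimum of the rule only in the deficient library, where it was high. These counts by the size rule are therefore not support for a shared change. The 2 fits differ in whether the stress-set libraries add to the spread, and with 1 library per condition neither measures the spread of repeated cultures.

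**Figure D4:**
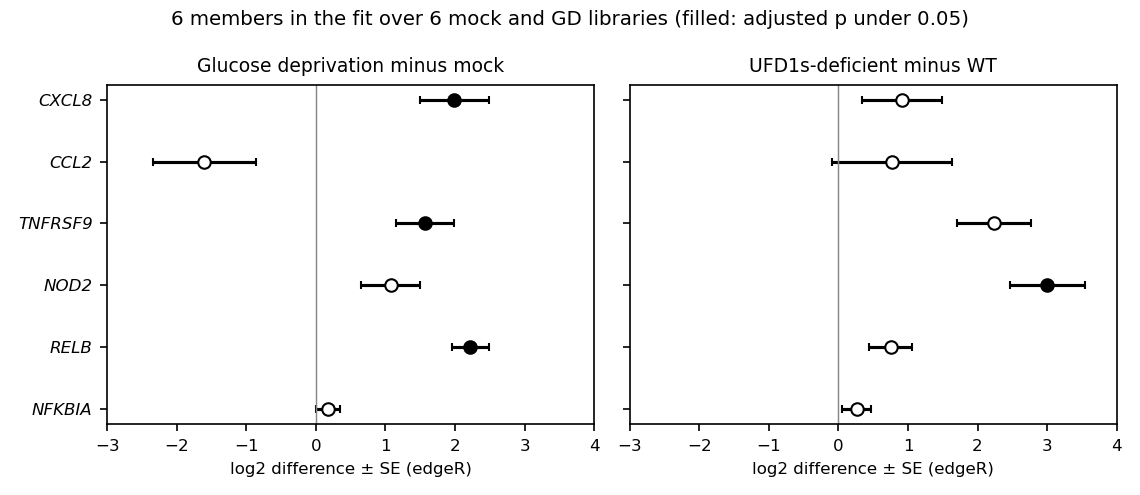
Log2 difference with its standard error from edgeR for the 6 genes on shared transcripts, for GD minus mock (left) and UFD1s-deficient minus WT (right) over 6 libraries; filled points have an adjusted p under 0.05. Filled on the left are CXCL8, TNFRSF9 and RELB, and NOD2 alone is filled on the right.

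Whether the GD response differed between genotypes was tested as an interaction in edgeR, which left 1 residual degree of freedom. It called 0% of the 10368 transcripts and 0 of the 6 genes. At an unadjusted p of 0.05 it had 123 transcripts and 1 of the 6 genes, and DESeq2 called 0. That gene was TNFRSF9, whose response was lower in deficient cells by a log2 value of -2.05 (SE 0.602, unadjusted p = 0.00760, edgeR adjusted p = 1). Within the genotype set the difference of its log2 responses was -1.67, with a counting interval of -2.81 to -0.54. That of RELB was -0.90 (-1.41 to -0.38). In the interaction over both sets RELB was at -0.27 and was not called. The RELB response in deficient cells, 4.15-fold, lay between those of the 2 WT pairs, 2.80-fold and 8.22-fold. In deficient cells TNFRSF9 and RELB both started from a higher mock level. Within the genotype set the difference was 1.28 (-0.19 to 2.74) for NOD2 and 0.95 (-0.41 to 2.31) for CCL2. It was 0.55 (-1.03 to 2.14) for CXCL8 and -0.04 (-0.27 to 0.18) for NFKBIA. The intervals of NOD2, CCL2, CXCL8 and NFKBIA each hold 0.

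The rest of the pathway was taken from 8 lists of ligands, receptors, adaptors and kinases, Rel subunits, inhibitors, chemokines and cytokines, chemokine receptors and other textbook targets, 137 genes in all besides the 10. Of these, 59 were tested. In GD edgeR called 4 higher (6.78%) and 7 lower (11.9%), with a median log2 difference of 0.00, where 9.75% and 11.1% of all transcripts were called. With a library left out, the number lower was 0 without deficient mock or deficient GD, 2 without either WT library of the genotype set and 8 without either stress-set library. The number higher was 3 without any 1 genotype-set library and 10 without either stress-set library. Calls over all transcripts, 2164 as reported, moved the same way. They were 504 and 494 without deficient mock or GD, and 1189 and 1147 without WT mock or GD of the genotype set. Without stress-set mock or GD they were 3806 and 4039, so these shifts were not particular to the pathway genes. Between genotypes edgeR called 0 in either direction, where 0.328% of all transcripts were called higher. At an unadjusted p of 0.05, 7 were higher and 2 lower, a count with no share over all transcripts beside it. DESeq2 called 1 of the 59 higher, against 71 of 10368 transcripts.

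Among 10 receptors tested in GD, TNFRSF12A, the receptor of TWEAK, rose by 1.39 (edgeR adjusted p = 0.000407) and EDAR, the ectodysplasin receptor, fell by 1.22, both as log2 differences (adjusted p = 0.0341 for EDAR). TNFRSF12A had 156, 254 and 736 reads in mock, GD and TG of the stress set. The WT pair of the genotype set had 462 (mock) and 1351 (GD) reads and the deficient pair 689 and 1341, so it was higher under stress in each pair.

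Of 18 adaptors and kinases 2 rose and 3 fell. RIPK2, the kinase that acts below NOD2, rose by 0.80 and RNF31, a ligase that builds linear ubiquitin chains, by 0.40, as log2 differences with edgeR adjusted p of 0.00210 and 0.0252. TRAF2, RIPK1 and UBE2N, which carry signals from tumour necrosis factor receptors, fell by 0.48, 0.36 and 0.55 on the same scale (adjusted p = 0.00877, 0.0441 and 0.00306). None of these 5 reached 2-fold.

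Of 12 inhibitors 0 rose and 1 fell, NLRC5, which fell by 0.97 (log2 difference) at an edgeR adjusted p of 0.0257. Of 2 chemokines tested CXCL12, a chemokine of stromal cells, fell by 1.42 (adjusted p = 0.0462). CXCL12 had 225, 130 and 93 reads in mock, GD and TG of the stress set, 111 (mock) and 12 (GD) in the WT pair of the genotype set and 77 and 20 in the deficient pair. In scaled reads the ratio of GD to mock was 0.852 (0.681 to 1.06) in the stress set, an interval that holds 1, 0.124 (0.0622 to 0.225) in the WT pair of the genotype set and 0.299 (0.173 to 0.494) in the deficient pair. Of 12 other targets GADD45B, a stress-induced regulator of kinase signalling, rose by 1.06 (adjusted p = 0.00133) and IER5 fell by 0.52 on the log2 scale (adjusted p = 0.0112). Of 2 ligands, 1 Rel subunit and 2 chemokine receptors tested in GD, 0 passed. The Rel subunit was REL, with 500, 467 and 808 reads in stress-set mock, GD and TG.

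In TG, 53 of the 137 genes had 50 or more reads, and 7 were past the size rule on the high side (13.2%, against 4.79% of all transcripts) and 1 on the low side (against 3.33%). The median log2 ratio of the 53 was 0.17, against 0.01 over all transcripts. TNF, the prototype ligand of the pathway, had 0 reads in mock, 0 in GD and 51 in TG. CXCL10, an interferon-induced chemokine, had 2, 0 and 101 reads. PTGS2, the inducible cyclooxygenase, had 28, 22 and 154 reads, 5.33-fold mock in TG (3.54 to 8.28). TNF and CXCL10 were thus near the limit of detection in mock and GD and present in TG. Of mock and TG, TNF, CXCL10 and PTGS2 reached 50 reads only in TG, where they were high. The share past the rule is therefore not support for a shared change.

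The others on the high side were TNFRSF12A at 4.57-fold mock (3.84 to 5.47), IER3 at 3.48-fold (3.16 to 3.83), GADD45B at 3.09-fold (2.76 to 3.45) and BIRC3 at 3.03-fold (2.30 to 4.05). IER3 is an early response gene and BIRC3 encodes cIAP2, a ubiquitin ligase of the receptor complex. IER3 had 535, 198 and 1920 reads in mock, GD and TG of the stress set, so there GD lay below mock and TG above it. The genotype set did not repeat the fall in GD. Its ratio of GD to mock was 1.36 (1.21 to 1.54) in WT and 0.959 (0.866 to 1.06) in deficient cells. CXCL12 was on the low side at a ratio of 0.400 (0.311 to 0.512). By list, 1 of 3 ligands, 1 of 10 receptors, 1 of 16 adaptors and kinases, 1 of 3 chemokines and 3 of 10 other targets were past the rule on the high side. None of 9 inhibitors, 1 Rel subunit (REL) and 1 chemokine receptor was. Median log2 ratios were 0.67 for the other targets and 0.35 for the inhibitors.

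AP-1 and C/EBP factors, which act beside NF-kB at the CXCL8 promoter, were listed separately, 14 genes with 12 tested. In GD 5 rose and 2 fell in edgeR, with a median of 0.23, where 9.75% of all transcripts rose and 11.1% fell. Those with the largest changes were DDIT3 (CHOP, a factor of the ER stress response) at 4.14, CEBPB at 1.89, CEBPG at 1.33 and FOSL2 at 1.02 (log2 differences with edgeR adjusted p of 0.000998, 4.01e-05, 0.00993 and 0.000502). In TG 5 of 11 were past the size rule on the high side, against 4.79% of all transcripts, and 0 on the low side. They included DDIT3, with 4, 217 and 211 reads in mock, GD and TG, and CEBPB, with 385, 1037 and 2009 reads. Of mock and TG, DDIT3, CEBPG and FOS reached the read minimum of the rule only in TG, where they were high. CEBPB and FOSL1 were above the minimum in mock too. The count past the rule is therefore not support for a shared change. In scaled reads of the stress set DDIT3 was at 80.0-fold mock in GD (30.8 to 296) and 51.1-fold in TG (19.7 to 189). Both ratios are against the same 4 reads, and the same ratios of CXCL8 were 2.58 and 83.2. The gap in GD was smaller in the genotype set. There DDIT3 in GD was at 7.02-fold mock (4.12 to 12.8) in WT and 15.7-fold (8.26 to 33.4) in deficient cells. CXCL8 was at 4.21-fold (1.65 to 12.7) and 5.53-fold (2.76 to 12.3).

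Among the 6 genes themselves, levels across the 7 libraries ran together for some pairs and not for others. Pearson's r of log2 CPM was 0.83 for CXCL8 with TNFRSF9, 0.79 for CXCL8 with RELB and 0.81 for RELB with NFKBIA. NOD2 had an r of -0.07 with CXCL8 and 0.30 with RELB. Of 8236 transcripts with 100 or more reads in some library, the 3 most like CXCL8 were C17orf75 (r = 0.986), XBP1 (0.981) and SRSF3 (0.978). XBP1, a factor of the ER stress response, had 44, 75 and 956 reads in mock, GD and TG of the stress set and 30 to 132 reads in the genotype set. Most like RELB were ETV3 (0.990), PVR (0.983) and SNHG15 (0.979), and most like NOD2 were LRP1B (0.982), FMNL1 (0.942) and CD24 (0.921). LRP1B had 73 and 106 reads in deficient mock and GD and 29 to 46 in the WT libraries. These correlations describe 7 libraries that share 2 sets and 1 line, with the single TG library far from the rest for CXCL8.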

How the data were processed

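RNA of HEK293T cells was measured in 7 libraries made from total RNA with a ribosomal RNA depletion kit, per the labels' protocols. The authors deposited 2 HEK293T tables of raw read counts, whole numbers with 1 row per RefSeq transcript and no normalization. Bowtie2, cutadapt, bedtools, FastQC and the build hg19 are named in the submitters' processing notes. How reads were assigned to transcripts, and whether strand was used, is not given in the sources. The mouse N2a table and the authors' deposited log ratios and p-values were not used.

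Library sizes were scaled by TMM within each table for CPM and RPKM, with transcript lengths from GENCODE. The 10368 shared transcripts were tested with edgeR 4.0.16 (R 4.3.3) on the 6 libraries of mock and GD; the terms were treatment, set and genotype, with 2 residual degrees of freedom, the default filter (0 transcripts removed), a common dispersion of 0.0192 and Benjamini-Hochberg adjustment at 0.05. DESeq2 1.42.0 was an alternative. The scripts were tested on simulated counts. Single pairs had no test: log2 ratios used 5 added reads, and ratios are of scaled reads with exact conditional 95% intervals. A level of 3 reads, taken as the floor, was 0.161 to 0.270 CPM.

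All 10 genes were described. Of each pathway list the called genes were named, or the 4 with the largest change. The 3 most correlated transcripts were named for CXCL8, RELB and NOD2. The genes and lists were chosen with earlier results of these data known. The interaction test was added after seeing the data.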

Additional observations from a re-analysis of the deposited data

How the results depend on the processing

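For GD, the number of the 6 genes called higher was 3. It was 5 in the genotype set alone, 0 with treatment as the only term and 2 to 4 when each library was left out in turn. For deficient against WT the number was 1. It was 2 with DESeq2, 3 in the genotype set alone and 0 to 3 with a library left out: 0 without deficient mock or deficient GD, 2 without genotype-set WT GD, and 3 without stress-set mock or stress-set GD. The genotype difference of CCL2 (0.77, not called) ran from -0.39 without deficient GD to 2.12 without deficient mock. RLE scaling, library totals, no filter and a minimum of 1 CPM in 3 libraries left these counts at 3 and 1. In TG 5 genes stayed past the size rule with 1 added read or library totals, and 4 of 6 with genotype-set WT mock as the control. The causes of the other shifts were not tested. Of 2164 transcripts called in GD 46.7% were higher, against 52.0% with RLE and 30.9% with library totals. The total was 4040 in the genotype set alone, 490 in WT alone, 23 with treatment only and 494 to 4039 with a library left out. For genotype it was 115, against 222 with DESeq2, 1942 in the genotype set alone and 5 to 1938 with a library left out. Of the other pathway genes in GD, 4 were higher and 7 lower. These were 10 and 8 in the genotype set alone, 3 and 0 in WT alone, 0 and 0 with treatment only, and 3 to 10 and 0 to 8 with a library left out. The labels carry no replicate numbers. Set and genotype together tell the 3 mock and GD pairs apart, so the GD test as reported is already the paired one, and treatment as the only term is the unpaired one. Depth limits the values that rest on few reads: RELA, NFKB2 and NFKB1 throughout, NOD2 in WT cells, and CXCL8 and CCL2 outside TG.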
